A study of Mus musculus with 12 samples.

Results

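Homologous recombination, Fanconi and damage checkpoint genes are 33 genes, chosen by symbol, whose products repair broken or crosslinked DNA and hold the cell cycle while that repair is made. All 33 were found among the 24346 genes with values, and all 33 passed the filter on low values (0.5 FPKM or more in 3 or more of 12 libraries), as did 12379 genes in all. They were read across 4 groups of 3 libraries, the control and SHHN groups of the NIH-3T3 and MLg lines. SHHN is the recombinant amino-terminal signalling fragment of Sonic hedgehog, given at 1 µg/ml for 48 h, and controls received vehicle for the same time. NIH-3T3 is an established fibroblast line from NIH/Swiss mouse embryos, and MLg is an established fibroblast line from the lung of newborn ddY mice. Cells of all 4 groups were treated at 85% confluence in DMEM with 0.5% FBS, after growth in 10% bovine calf serum (NIH-3T3) or 10% FBS (MLg). Each line stands for its type alone, and strain, tissue, age of origin and growth serum cannot be told apart from the line. FPKM, the unit of all levels, corrects fragment numbers for library size and for the length of the transcript, so levels of different genes can be set side by side.

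Homologous recombination repairs double-strand breaks by copying the sister chromatid, and therefore works mainly in the S and G2 phases. Breaks are sensed and trimmed by the MRE11-RAD50-NBN (MRN) complex and nucleases such as EXO1. BRCA1-BARD1 and the bridge protein PALB2 then bring BRCA2 to the trimmed ends, and RAD51B, RAD51C, RAD51D, XRCC2, XRCC3, RAD51AP1 and the RAD54 motors assist the exchange of strands. In the Fanconi pathway, FANCM anchors a core complex whose ligase FANCL ubiquitinates the FANCD2-FANCI (ID2) pair at DNA crosslinks. ATM and ATR are the damage kinases that act through CHEK2 and CHEK1. Transcription of many genes of S phase is held down by RB-family proteins in quiescent cells and driven by E2F factors in cycling ones.

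Stretches of 8 promoters are shown to let windows with an E2F-type motif be seen beside windows without one. Windows with a match were cut around it, and the others are the last 60 bases before the start, so the positions differ. Promoters of 26 of the 33 genes were matched in the RefSeq table (GRCm38.p6, from 250 bases before to 50 after the start of each gene). Rad51d, Xrcc2, Rad54b, Fancd2, Exo1, Rad50 and Nbn were not matched. Both strands were searched for TTCCCGC, and equally for TTGGCGC, for TTCGCGC and for TTGCCGC, the motifs being chosen with the SHHN effects known. Capitals mark the match, and each sequence reads 5′ to 3′ on the strand of its gene. The first 4 genes and also Fanca and Rad54l rose in both lines, whereas Xrcc3 and Rad51b did not, and the last 4 stretches hold no match.
Bard1 (chr1:71103147-71103206, minus strand): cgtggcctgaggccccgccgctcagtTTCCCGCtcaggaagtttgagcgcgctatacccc
Brca2 (chr5:150522427-150522486, plus strand): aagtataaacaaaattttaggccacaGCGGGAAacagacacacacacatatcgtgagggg
Fancb (chrX:164980394-164980453, plus strand): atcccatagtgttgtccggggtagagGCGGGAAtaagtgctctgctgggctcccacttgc
Chek2 (chr5:110839805-110839864, plus strand): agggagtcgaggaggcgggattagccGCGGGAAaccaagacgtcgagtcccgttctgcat
Fanca (chr8:123318577-123318636, minus strand): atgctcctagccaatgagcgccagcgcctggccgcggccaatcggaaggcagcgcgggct
Rad54l (chr4:116123691-116123750, minus strand): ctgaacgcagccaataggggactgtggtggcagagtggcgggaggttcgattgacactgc
Xrcc3 (chr12:111813880-111813939, minus strand): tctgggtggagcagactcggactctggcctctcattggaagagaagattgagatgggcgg
Rad51b (chr12:79297222-79297281, plus strand): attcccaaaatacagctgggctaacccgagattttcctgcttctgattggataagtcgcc

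The E2F-type letters were found in 16 of the 26 matched genes (61.5%), against 10.9% of 27025 genes. A gene counted if any of its promoters held a match, and the 27025 genes were not limited to those tested here. For Brca1, Rad51c, Rad51ap1, Fanci, Brip1, Atm, Chek1 and Msh6 the match was not wholly before the start in the first promoter listed. It crossed or followed that start, or lay in another promoter of the gene. Of the 17 matched genes that rose in both lines, 13 held a match and 4 did not, namely Rad54l, Fanca, Fancc and Fancl. Of the 9 matched genes that did not rise in both lines, 3 held one, Fancf, Fancg and Atm. The longer form TTTCCCGC, which contains TTCCCGC, was in 6 of the 26 (23.1%) and in 1.24% of all genes. The CCAAT box, bound by NF-Y, was in 18 of the 26 (69.2%) and in 41.1% of all genes. The CHR element of G2/M genes, TTTGAA or TTCGAA, was in 3 of the 26 (11.5%) and in 21.7% of all genes. The GLI-type letters GACCACCCA, of the kind bound by the transcription factors at the end of the Hedgehog pathway, were in 0 of the 26 and in 0.289% of all genes. At so low a share, 0 among 26 promoters is the likely outcome for any list, so it says nothing about these genes. A match is a run of letters in this window, not a site shown to be bound.

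Sums of FPKM ranged from 470218 to 659862 per library, 13401 to 14793 genes were above 0, and the depth is unknown. Rank correlations across genes were 0.969 to 0.977 within groups and 0.928 to 0.968 between groups. NIH-3T3 control replicate 2 was the lowest of its 3 libraries for 19 of the 33 genes, MLg SHHN replicate 2 for 19 and MLg control replicate 1 for 17, and MLg control replicate 3 was the highest of its 3 for 22. The labels do not say that replicates were separate cultures, so p-values measure only the spread between these samples. Gli1, the transcription factor that Hedgehog signalling induces most directly, went from 0.131 to 147 FPKM in NIH-3T3 and from 0.583 to 120 FPKM in MLg, and the receptor gene Ptch1 from 2.39 to 138 and from 3.21 to 260 FPKM. Fibroblast markers summed to 13010 to 14350 FPKM in NIH-3T3 control, 8391 to 10350 in NIH-3T3 SHHN, 8669 to 9909 in MLg control and 7792 to 9271 in MLg SHHN. In NIH-3T3, 6 of these 8 markers fell and Thy1 rose, and in MLg Pdgfra and Pdgfrb fell. Thy1, a fibroblast surface marker, was at 121 FPKM in NIH-3T3 control and at 0.0701 FPKM in MLg control. Sums over 7 epithelial markers stayed at or below 0.704 FPKM (Epcam, Krt18 and Nkx2-1 at 0 throughout), and over 6 leukocyte markers at or below 1.86 FPKM (2 of them at 0 throughout, Cd3e included). Endothelial markers, 6 genes, summed to 5.75 to 7.94 FPKM in NIH-3T3 control, 6.73 to 25.4 in NIH-3T3 SHHN, 0.233 to 0.447 in MLg control and 6.29 to 6.99 in MLg SHHN. Cdh5, a junction gene of endothelium, rose in both lines. Tek, an angiopoietin receptor gene, rose in MLg from 0.0547 to 0.943 FPKM (adjusted p = 0.00139) and was at 6.87 and 8.76 FPKM in NIH-3T3. Pecam1 and Kdr had group means at or below 0.0943 FPKM. In whole cultures, fewer cells of a type and less RNA per cell cannot be told apart, and the part of these markers in the results was not tested.

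With SHHN, most of the 33 genes rose in both lines and none fell. In NIH-3T3, 24 rose and 9 did not pass (adjusted p under 0.05 in limma, over all genes tested), while 16.6% of all genes tested rose and 14.8% fell. In MLg, 27 rose and 6 did not pass, while 12.8% of all genes rose and 10.0% fell. The median log2 effect of the 33 was 0.86 in NIH-3T3 and 1.29 in MLg, beside medians over all genes of -0.01 and -0.0026. All effects are differences of log2(FPKM + 0.5), a scale that understates the change of genes with low levels. The same 22 genes rose in both lines, and 4 passed in neither: Rad51d, Xrcc3, Fance and Atr. At least 2-fold rises on this scale numbered 16 in NIH-3T3 and 21 in MLg. For rises in both lines and for 2-fold rises, the share of all genes tested was not computed. Every SHHN library lay above every control library for 28 genes in NIH-3T3 (21.6% of all genes tested) and for 28 in MLg (21.4%). The summed level of the 33 genes was 113 ± 4.66 FPKM (SD, n = 3) in NIH-3T3 control and 210 ± 4.69 FPKM with SHHN. In MLg it was 122 ± 9.09 FPKM and 277 ± 6.98 FPKM.

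**Figure D1:**
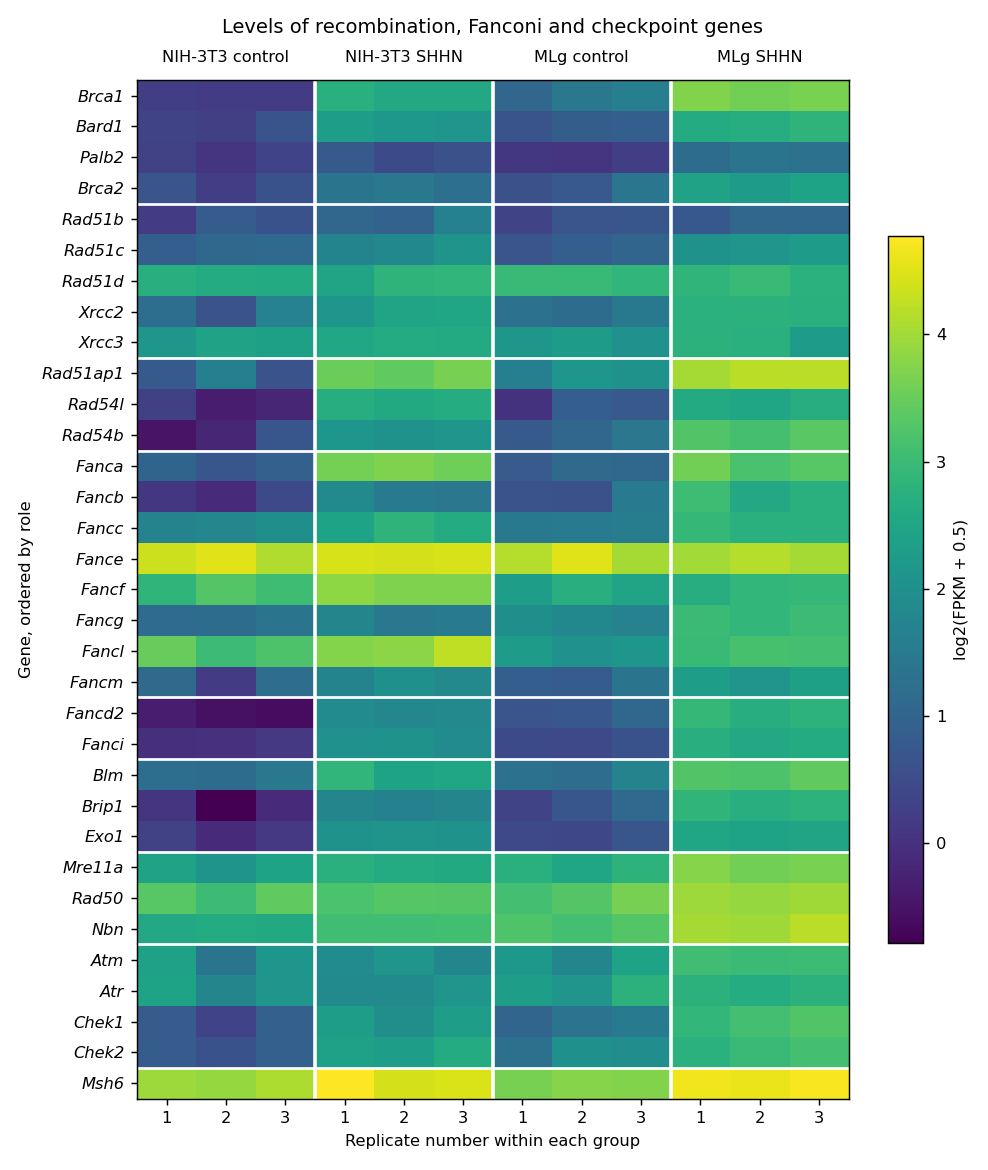
Level of each of the 33 genes, in rows ordered by role, as log2(FPKM + 0.5), in the 12 libraries, in columns by group and replicate number. The ID2 pair and the helicase genes are dark in the control columns and bright with SHHN, while Fance, Msh6 and Rad50 are bright in every group.

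Proliferation markers rose as well, all 18 of them in both lines, with median log2 effects of 2.43 in NIH-3T3 and 2.13 in MLg. The difference of effects (NIH-3T3 minus MLg) had a median of 0.33 over the markers and of -0.24 over the 33 genes. It passed for 5 markers that rose more in NIH-3T3 (27.8%, against 7.48% of all genes tested). In the other direction it passed for 1 marker (5.56%, against 5.95%). Their summed level was 198 to 231 FPKM in NIH-3T3 control and 893 to 982 FPKM with SHHN. In MLg it was 278 to 362 FPKM in control and 1313 to 1504 FPKM with SHHN. The mitotic kinase genes Plk1 and Aurkb rose by 3.19 and 3.12 log2 units in NIH-3T3. In MLg, the helicase subunit genes Mcm6 and Mcm5 rose by 1.98 and 2.36 log2 units. The share of cycling cells was not measured, and its part in the results below was not tested.

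In the mediator group, Brca1, whose product forms a ubiquitin ligase with BARD1, had 0.691, 0.634 and 0.630 FPKM in the NIH-3T3 control libraries and 6.16, 5.44 and 5.40 with SHHN. Its MLg control libraries had 1.57, 2.2 and 2.5 FPKM and its MLg SHHN libraries 12.7, 11.5 and 12.1. The groups did not overlap in either line, and the lowest treated library of NIH-3T3 lay above the highest MLg control. Brca1 rose by a log2 effect of 2.42 (SE 0.14, adjusted p = 3.31e-08) in NIH-3T3 and of 2.30 (SE 0.14, adjusted p = 1.56e-07) in MLg. In terms of group means, these were 8.69-fold and 5.78-fold. Bard1, the partner, rose from 0.859 ± 0.199 to 4.13 ± 0.352 FPKM (SD, n = 3) in NIH-3T3 and from 1.24 ± 0.130 to 6.12 ± 0.477 in MLg. Both of its effects passed, at 1.77 (adjusted p = 4.84e-07) and 1.93 (adjusted p = 4.69e-07). Brca2, the gene of the central recombination mediator, had 1.10, 0.692 and 1.03 FPKM in NIH-3T3 control and 2.05, 2.23 and 1.88 with SHHN. The MLg libraries had 1.01, 1.19 and 2.13 FPKM in control, where replicate 3 stood about as high as treated NIH-3T3, and 4.86, 4.32 and 4.90 with SHHN. Brca2 rose by 0.83 (SE 0.20, adjusted p = 0.00503) in NIH-3T3 and by 1.46 (SE 0.20, adjusted p = 7.83e-05) in MLg. The NIH-3T3 call was lost without both NIH-3T3 libraries numbered 2 (0.65, adjusted p = 0.0532).

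Palb2, the bridge between BRCA1 and BRCA2, was the mediator gene that did not pass in NIH-3T3. Its control libraries had 0.726, 0.545 and 0.765 FPKM there and its SHHN libraries 1.23, 0.886 and 1.01. The MLg values were 0.590, 0.548 and 0.687 FPKM in control and 1.78, 2.07 and 1.96 with SHHN. Treated libraries lay above controls in both lines, but the step was far smaller in NIH-3T3. The log2 effects were 0.39 (SE 0.14, adjusted p = 0.0542) in NIH-3T3 and 1.14 (SE 0.14, adjusted p = 4.5e-05) in MLg. Without the filter on low values, the NIH-3T3 effect passed (adjusted p = 0.0418).

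The paralog genes Rad51b, Rad51c, Rad51d, Xrcc2 and Xrcc3, whose products assist recombination, split between 2 genes that rose in both lines and 3 that did not pass in 1 or both. Rad51c, a subunit of both paralog complexes, rose from 1.34, 1.58 and 1.67 FPKM to 2.80, 3.02 and 3.77 in NIH-3T3. In MLg it rose from 1.10, 1.34 and 1.52 FPKM to 3.71, 3.80 and 4.32. No treated library fell among the controls, and the log2 effects were 0.86 (SE 0.15, adjusted p = 0.000535) and 1.29 (SE 0.15, adjusted p = 1.96e-05). Xrcc2 rose from 1.87 ± 0.835 to 4.68 ± 0.686 FPKM (SD, n = 3) in NIH-3T3 and from 2.0 ± 0.234 to 6.31 ± 0.104 in MLg. Its effects were 1.18 (adjusted p = 0.000817) and 1.45 (adjusted p = 0.000189).

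The other three paralogs did not rise in both lines. Rad51b had 0.653, 1.29 and 1.03 FPKM in NIH-3T3 control and 1.55, 1.45 and 2.64 with SHHN. In the MLg line there were 0.769, 1.11 and 1.11 FPKM in control and 1.18, 1.58 and 1.56 with SHHN. One treated NIH-3T3 library, replicate 3, stood well above the other two. Rad51b rose in NIH-3T3 (0.67, SE 0.21, adjusted p = 0.0289), and in MLg its effect was 0.38 (adjusted p = 0.248). The NIH-3T3 call was lost without control replicate 1 (adjusted p = 0.115), control replicate 3 (0.0564) or SHHN replicate 3 (0.125), and also with quantile normalization (0.0794) or a fit of the 2 groups alone (0.102). Rad51d had 5.97, 5.74 and 5.64 FPKM in NIH-3T3 control and 5.03, 6.57 and 6.82 with SHHN, and 7.43, 7.35 and 6.78 in MLg control and 6.68, 7.43 and 6.29 with SHHN. Treated and control libraries overlapped in both lines, and the effects were 0.07 (SE 0.13, adjusted p = 0.740) and -0.08 (SE 0.13, adjusted p = 0.741). Xrcc3, the partner of RAD51C, had 3.96, 4.81 and 4.68 FPKM in NIH-3T3 control and 5.25, 5.68 and 5.66 with SHHN. MLg libraries gave 3.95, 4.42 and 3.56 FPKM in control and 6.39, 6.23 and 4.32 with SHHN, so that 1 treated library lay among the controls. Its effects were 0.28 (adjusted p = 0.188) and 0.44 (adjusted p = 0.0520). The MLg effect passed with the replicate number as a block (adjusted p = 0.0401), without MLg SHHN replicate 3 (0.0118) and without NIH-3T3 control replicate 2 (0.0433).

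The genes Rad54l, Rad51ap1 and Rad54b, which act at strand exchange, all rose by more than 2 log2 units in both lines. Rad54l, the gene of a DNA motor protein, had 0.705, 0.278 and 0.374 FPKM in NIH-3T3 control and 5.88, 5.54 and 5.78 with SHHN. Its MLg libraries had 0.520, 1.33 and 1.20 FPKM in control and 5.59, 5.12 and 5.94 with SHHN. The treated libraries of both lines therefore met at the same level from unequal controls. Rad54l rose by 2.74 (SE 0.21, adjusted p = 3.88e-07) in NIH-3T3 and by 2.04 (SE 0.21, adjusted p = 9.03e-06) in MLg. Rad51ap1, which promotes pairing with the sister chromatid, had 1.23, 2.57 and 1.05 FPKM in NIH-3T3 control and 11.1, 10.2 and 11.9 with SHHN. In MLg it had 2.56, 3.88 and 3.67 FPKM in control and 15.8, 17.8 and 17.9 with SHHN. No treated library overlapped a control, and the effects were 2.52 (SE 0.22, adjusted p = 1.2e-06) and 2.21 (SE 0.22, adjusted p = 6.1e-06). Rad54b, the paralog of RAD54L, had 0.215, 0.379 and 1.11 FPKM in NIH-3T3 control and 3.88, 3.69 and 3.91 with SHHN. Its MLg libraries went from 1.22, 1.57 and 2.17 FPKM to 9.07, 8.31 and 9.75. Treated MLg stood at more than 2 times treated NIH-3T3, and the effects were alike at 2.11 (adjusted p = 1.94e-05) and 2.17 (adjusted p = 1.96e-05).

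**Figure D2:**
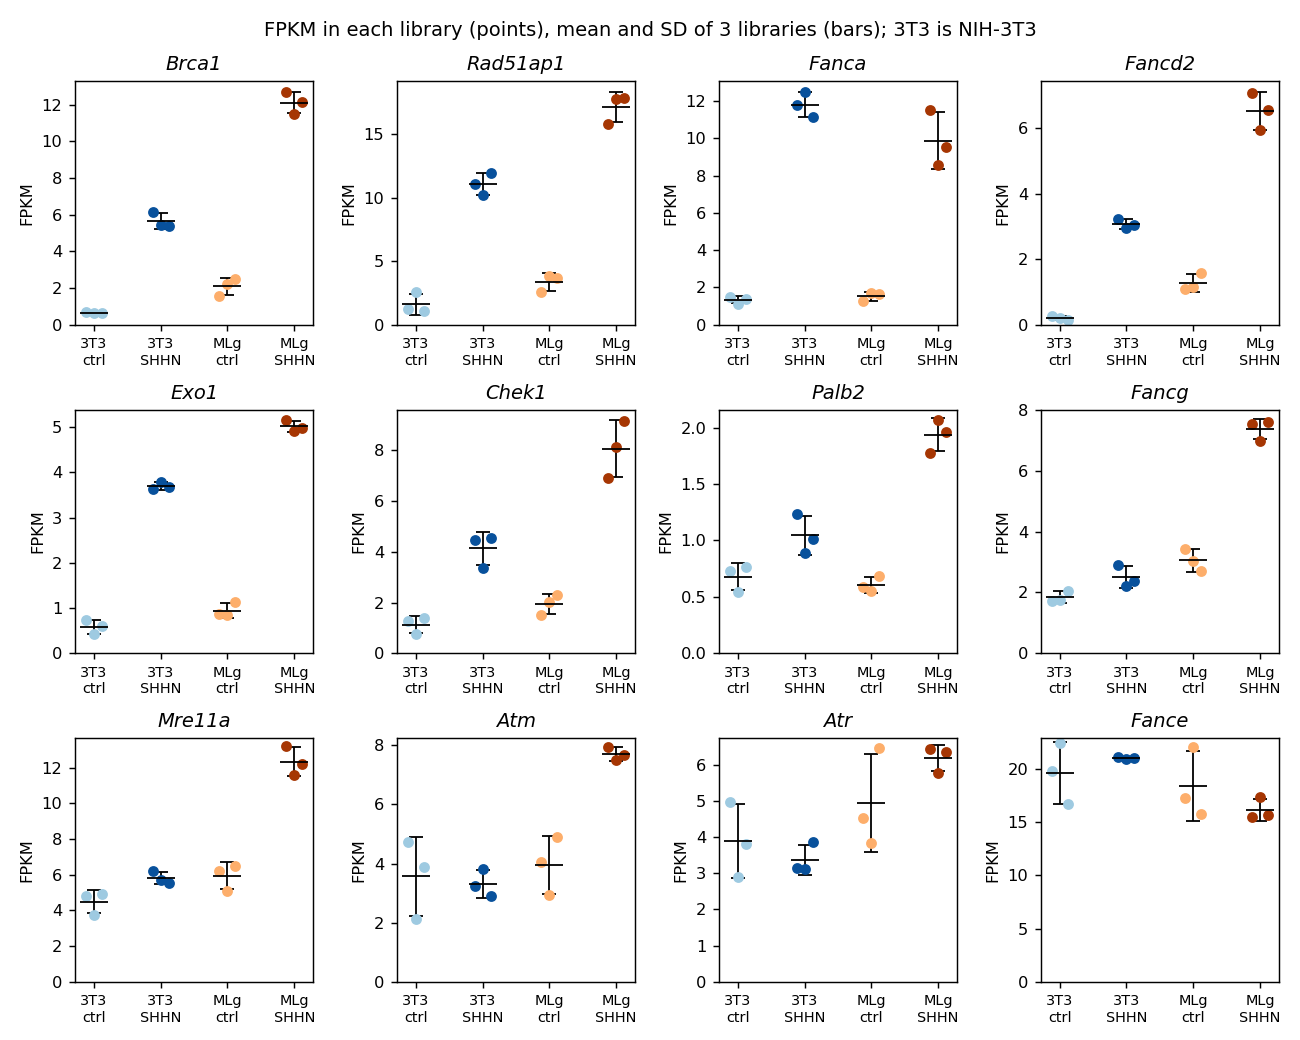
FPKM of 12 of the genes in each library (points) of the 4 groups on the x axis, with the mean and SD of 3 libraries (bars). Brca1, Rad51ap1, Fanca, Fancd2, Exo1 and Chek1 stand apart from controls in both lines, Palb2, Fancg and Mre11a moved mainly in MLg, and Atr and Fance overlap between treated and control libraries in both lines.

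Genes of the Fanconi core complex and its anchor rose unevenly, 6 of 8 in each line. Fanca had the smallest adjusted p of the core genes in both lines. Its product forms a core submodule with FANCG. It had 1.5, 1.12 and 1.39 FPKM in NIH-3T3 control and 11.8, 12.5 and 11.2 with SHHN. The MLg libraries had 1.26, 1.71 and 1.64 FPKM in control and 11.5, 8.58 and 9.52 with SHHN. The lines overlapped with each other in both states, and treated libraries were far above controls. Fanca rose by 2.75 (SE 0.15, adjusted p = 1.48e-08) in NIH-3T3, or 8.83-fold in group means, and by 2.35 (SE 0.15, adjusted p = 1.56e-07) in MLg, or 6.42-fold. Fancb, in the catalytic submodule with FANCL, rose from 0.623 ± 0.215 to 2.56 ± 0.535 FPKM (SD, n = 3) in NIH-3T3 and from 1.46 ± 0.749 to 6.44 ± 1.18 in MLg. The effects were 1.45 (adjusted p = 0.000418) and 1.87 (adjusted p = 5.78e-05). Fancc rose by 0.80 (adjusted p = 0.000495) and 1.29 (adjusted p = 1.02e-05), and Fancm, the translocase that anchors the complex, by 1.01 (adjusted p = 0.00525) and 1.25 (adjusted p = 0.00157).

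Fancl, the ligase gene, was among the core genes with higher levels. Its libraries had 10.7, 7.70 and 8.79 FPKM in NIH-3T3 control and 12.8, 13.6 and 18.4 with SHHN, and 4.38, 3.58 and 3.91 in MLg control and 7.25, 8.38 and 8.15 with SHHN. All NIH-3T3 SHHN libraries stood above all MLg libraries, and control NIH-3T3 reached the level of treated MLg. Fancl rose by 0.68 (SE 0.16, adjusted p = 0.00443) in NIH-3T3 and by 0.92 (SE 0.16, adjusted p = 0.000649) in MLg. Fancf, an adaptor of the core complex, had 6.76, 9.26 and 7.83 FPKM in NIH-3T3 control and 13.7, 12.5 and 12.5 with SHHN. The MLg values were 4.44, 6.01 and 4.99 FPKM in control and 5.95, 6.97 and 7.11 with SHHN, where the lowest treated library lay under the highest control. It rose in NIH-3T3 (0.67, SE 0.14, adjusted p = 0.00268), and its effect in MLg was 0.35 (SE 0.14, adjusted p = 0.1). Fance, which contacts FANCD2, had 19.8, 22.5 and 16.7 FPKM in NIH-3T3 control and 21.1, 20.9 and 21.1 with SHHN. Its MLg libraries had 17.3, 22.1 and 15.8 FPKM in control and 15.5, 17.4 and 15.7 with SHHN. Its level was above that of the other core genes in every library, and its effects were 0.11 (adjusted p = 0.607) and -0.17 (adjusted p = 0.446).

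Fancg, the partner of FANCA, was the core gene that rose in MLg and did not pass in NIH-3T3. It had 1.73, 1.75 and 2.06 FPKM in NIH-3T3 control and 2.91, 2.23 and 2.37 with SHHN, and 3.44, 3.03 and 2.71 in MLg control and 7.55, 6.99 and 7.6 with SHHN. Treated MLg stood alone, at more than 2 times every other library. The effects were 0.35 (SE 0.14, adjusted p = 0.0657) in NIH-3T3 and 1.15 (SE 0.14, adjusted p = 2.65e-05) in MLg.

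The ID2 pair, the substrate of the core complex, rose in both lines from low control levels. Fancd2 had 0.275, 0.192 and 0.160 FPKM in NIH-3T3 control and 3.23, 2.96 and 3.04 with SHHN. In the MLg line there were 1.09, 1.15 and 1.59 FPKM in control and 7.08, 5.94 and 6.56 with SHHN. The 4 groups formed 4 separate steps. Fancd2 rose by 2.34 (SE 0.14, adjusted p = 4.21e-08) in NIH-3T3 and by 1.99 (SE 0.14, adjusted p = 4.01e-07) in MLg, which were 14.7-fold and 5.11-fold in group means. Fanci, the partner, had 0.479, 0.501 and 0.593 FPKM in NIH-3T3 control and 3.56, 3.65 and 3.23 with SHHN. Its MLg libraries went from 0.868, 0.855 and 1.03 FPKM to 6.00, 5.47 and 5.70. The same order of the 4 groups held for Fanci, with effects of 1.96 (SE 0.12, adjusted p = 5.29e-08) and 2.14 (SE 0.12, adjusted p = 8.72e-08).

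The helicase and nuclease genes rose in both lines. Exo1, a nuclease that resects broken ends and also serves mismatch repair, had 0.728, 0.421 and 0.607 FPKM in NIH-3T3 control and 3.63, 3.79 and 3.67 with SHHN. MLg libraries gave 0.859, 0.836 and 1.13 FPKM in control and 5.16, 4.92 and 4.99 with SHHN. Its effects, 1.96 (SE 0.14, adjusted p = 1.83e-07) and 1.94 (SE 0.14, adjusted p = 4.38e-07), were nearly equal. Brip1, the helicase that binds BRCA1, had 0.534, 0.0794 and 0.425 FPKM in NIH-3T3 control and 2.85, 2.67 and 2.86 with SHHN. Its MLg libraries had 0.786, 1.14 and 1.66 FPKM in control and 6.73, 6.13 and 6.52 with SHHN. Groups did not overlap, and the effects were 2.0 (adjusted p = 9.32e-06) and 2.07 (adjusted p = 9.22e-06). Blm, the Bloom syndrome helicase, rose from 1.94 ± 0.240 to 5.62 ± 1.05 FPKM (SD, n = 3) in NIH-3T3 and from 2.17 ± 0.514 to 9.39 ± 0.727 in MLg. Its effects were 1.32 (adjusted p = 3.41e-05) and 1.90 (adjusted p = 1.81e-06).

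In the MRN complex, 1 of 3 genes rose in NIH-3T3 and 3 of 3 in MLg. Nbn, the subunit that recruits ATM, had 5.43, 5.68 and 5.49 FPKM in NIH-3T3 control and 7.87, 7.90 and 8.06 with SHHN. In MLg it had 9.04, 8.18 and 9.21 FPKM in control and 15.9, 15.2 and 17.8 with SHHN. The replicates lay close together and the 4 groups were separate. Nbn rose by 0.48 (SE 0.11, adjusted p = 0.0034) and by 0.85 (SE 0.11, adjusted p = 4.45e-05). Mre11a, the nuclease subunit, had 4.82, 3.74 and 4.93 FPKM in NIH-3T3 control and 6.20, 5.71 and 5.55 with SHHN, and 6.22, 5.10 and 6.51 in MLg control and 13.2, 11.6 and 12.2 with SHHN. Treated NIH-3T3 lay within the range of control MLg. The effects of Mre11a were 0.35 (SE 0.14, adjusted p = 0.0679) in NIH-3T3 and 1.00 (SE 0.14, adjusted p = 8.92e-05) in MLg. Rad50, the tethering subunit, had 9.52, 7.61 and 10.2 FPKM in NIH-3T3 control and 8.75, 9.39 and 9.20 with SHHN, and 8.15, 9.33 and 11.9 in MLg control and 15.1, 14.4 and 15.2 with SHHN. The first 3 of these groups overlapped and treated MLg stood above them. Its effects were 0.01 (SE 0.14, adjusted p = 0.976) in NIH-3T3 and 0.60 (SE 0.14, adjusted p = 0.00818) in MLg. The difference between them did not pass (-0.59, SE 0.20, adjusted p = 0.0777).

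Among the checkpoint kinases, the effector genes Chek1 and Chek2 rose in both lines, Atm rose in MLg and Atr in neither. Chek1 had 1.25, 0.753 and 1.38 FPKM in NIH-3T3 control and 4.48, 3.38 and 4.56 with SHHN. The MLg libraries had 1.53, 2.03 and 2.30 FPKM in control and 6.92, 8.15 and 9.15 with SHHN. Treated libraries exceeded every control of both lines, and Chek1 rose by 1.52 (SE 0.19, adjusted p = 3.22e-05) and 1.81 (SE 0.19, adjusted p = 8.9e-06). Chek2 had 1.28, 1.03 and 1.40 FPKM in NIH-3T3 control and 4.78, 4.55 and 5.67 with SHHN. Its MLg libraries had 1.92, 3.51 and 3.32 FPKM in control and 6.25, 7.32 and 8.19 with SHHN. The lowest MLg control stood apart from its 2 replicates, and Chek2 rose by 1.66 (SE 0.19, adjusted p = 1.48e-05) and 1.21 (SE 0.19, adjusted p = 0.000331). Atm had 4.73, 2.11 and 3.88 FPKM in NIH-3T3 control and 3.24, 3.81 and 2.89 with SHHN, and 4.05, 2.93 and 4.89 in MLg control and 7.96, 7.5 and 7.69 with SHHN. Treated NIH-3T3 lay inside the wide control range, whereas treated MLg lay above every other library. The effects of Atm were -0.04 (SE 0.23, adjusted p = 0.914) in NIH-3T3 and 0.91 (SE 0.23, adjusted p = 0.0106) in MLg, and the latter was lost without MLg control replicate 2 (0.73, adjusted p = 0.0581). The difference between these effects did not pass (-0.95, SE 0.32, adjusted p = 0.0712). Atr had 4.96, 2.90 and 3.81 FPKM in NIH-3T3 control and 3.14, 3.12 and 3.86 with SHHN, and 4.51, 3.84 and 6.45 in MLg control and 6.44, 5.78 and 6.36 with SHHN. Treated and control libraries overlapped in both lines, with effects of -0.16 (SE 0.19, adjusted p = 0.583) and 0.33 (SE 0.19, adjusted p = 0.274).

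Msh6, a mismatch recognition gene, was the other member with levels above 10 FPKM in all libraries besides Fance. It had 15.0, 14.4 and 16.5 FPKM in NIH-3T3 control and 26.9, 21 and 21.6 with SHHN. The MLg values were 11.9, 13.1 and 12.6 FPKM in control and 24.9, 24.0 and 25.7 with SHHN. The treated libraries of the lines overlapped, and Msh6 rose by 0.58 (SE 0.11, adjusted p = 0.00159) and 0.96 (SE 0.11, adjusted p = 2.81e-05).

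Whether SHHN acted on these genes to a different extent in the lines was tested as the difference of the effects (NIH-3T3 minus MLg). It passed for 3 of the 33, Palb2, Fancg and Mre11a, in all of which the rise was smaller in NIH-3T3. That is 9.09% of the genes, against 5.95% of all genes tested in this direction. In the other direction 0 of 33 passed, against 7.48% of all genes. With a pseudocount of 0.1, Fancd2 passed in that direction (1.09, adjusted p = 0.0233). The differences were -0.75 (SE 0.20, adjusted p = 0.0260) for Palb2, -0.80 (SE 0.19, adjusted p = 0.0147) for Fancg and -0.65 (SE 0.19, adjusted p = 0.0390) for Mre11a. The Fancg call held under every alternative run, while Palb2 was lost on leaving out 7 of the 12 libraries in turn and Mre11a on leaving out 9, and also with a pseudocount of 0.1 or no filter. Without NIH-3T3 control replicate 2, 5 genes passed, Rad50 and Atm being added, and without MLg control replicate 3, 7 passed, with Brca2, Blm, Rad50 and Atm added. The point estimate was larger in MLg for 22 genes and in NIH-3T3 for 11. Rad54l had the highest of the estimates that favoured NIH-3T3, a difference of 0.70 (SE 0.30, adjusted p = 0.153), which passed without MLg control replicate 1 (0.96, adjusted p = 0.0246). Across the 33 genes the effects in the 2 lines had Pearson's r of 0.89 and Spearman's rho of 0.92, as a description over genes, which share libraries and are not independent. Over all 12379 genes these were 0.55 and 0.41.

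**Figure D3:**
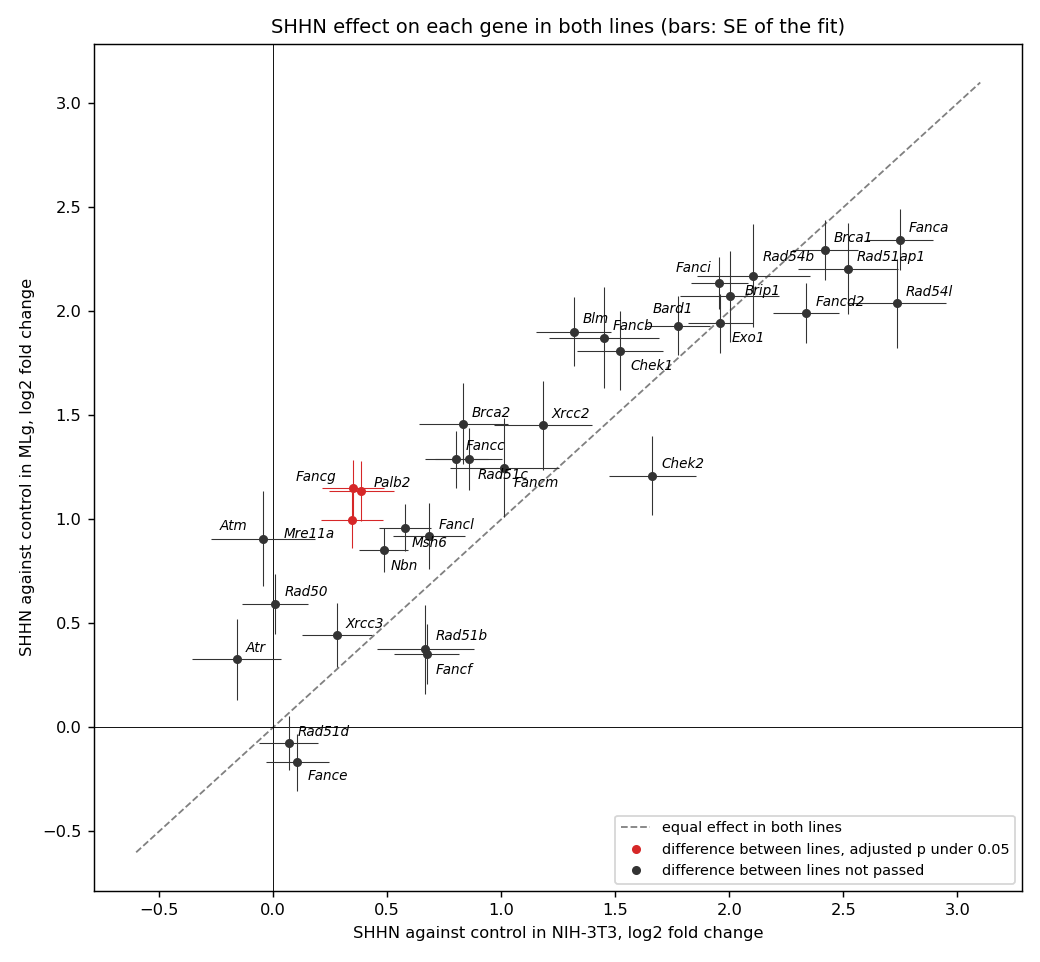
Log2 effect of SHHN on each of the 33 genes in NIH-3T3 (x axis) and MLg (y axis), with SE bars, the dashed line marking equal effects. Palb2, Fancg and Mre11a (red) lie above the line with a difference that passed, and 22 of the 33 genes lie above it in all.

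Genes with lower control levels rose more. Across the 33 genes, the level in control MLg, as log2(FPKM + 0.5), and the effect in NIH-3T3 had r of -0.60 and rho of -0.62. The level in control NIH-3T3 and the effect in MLg had r of -0.77 and rho of -0.76. Over all genes the same 2 pairs gave r of -0.10 and -0.11. Each pair takes its 2 measures from different libraries, and the points share the scale and length correction of a gene.

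Several ratios between partner genes moved with SHHN. The ratio of Brca1 to Bard1 FPKM was 0.786 ± 0.178 (SD, n = 3) in NIH-3T3 control and 1.37 ± 0.0267 with SHHN, without overlap. In MLg it was 1.68 ± 0.222 and 1.99 ± 0.194, with overlap. Fancd2 over Fanci went from 0.409 ± 0.154 to 0.887 ± 0.0684 in NIH-3T3 and from 1.38 ± 0.148 to 1.14 ± 0.0484 in MLg, so the treated libraries lay above the controls in the first line and below them in the second. In NIH-3T3 control this ratio rests on low values, with Fancd2 at 0.160 to 0.275 FPKM. The difference of effects between the lines passed for neither Fancd2 (adjusted p = 0.293 in limma) nor Fanci (adjusted p = 0.546). For Fancd2 this depended on the pseudocount, since with 0.1 in place of 0.5 the difference passed (1.09, adjusted p = 0.0233). Fanca over Fancg went from 0.728 ± 0.124 to 4.79 ± 0.788 in NIH-3T3 and from 0.513 ± 0.127 to 1.34 ± 0.167 in MLg. The range of treated NIH-3T3 for this ratio, 4.04 to 5.61, did not overlap any other group. Chek1 over Atr rose without overlap in both lines, from 0.292 ± 0.0616 to 1.23 ± 0.177 and from 0.408 ± 0.105 to 1.31 ± 0.203. Chek2 over Atm went from 0.373 ± 0.108 to 1.54 ± 0.389 in NIH-3T3, and overlapped in MLg (0.784 ± 0.374 and 0.942 ± 0.143). Within MRN, Mre11a over Rad50 was higher with SHHN in every library of both lines, at 0.640 ± 0.0597 against 0.494 ± 0.0120 in NIH-3T3 and 0.827 ± 0.0391 against 0.618 ± 0.125 in MLg. These ratios are given as a description, with no test.

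**Figure D4:**
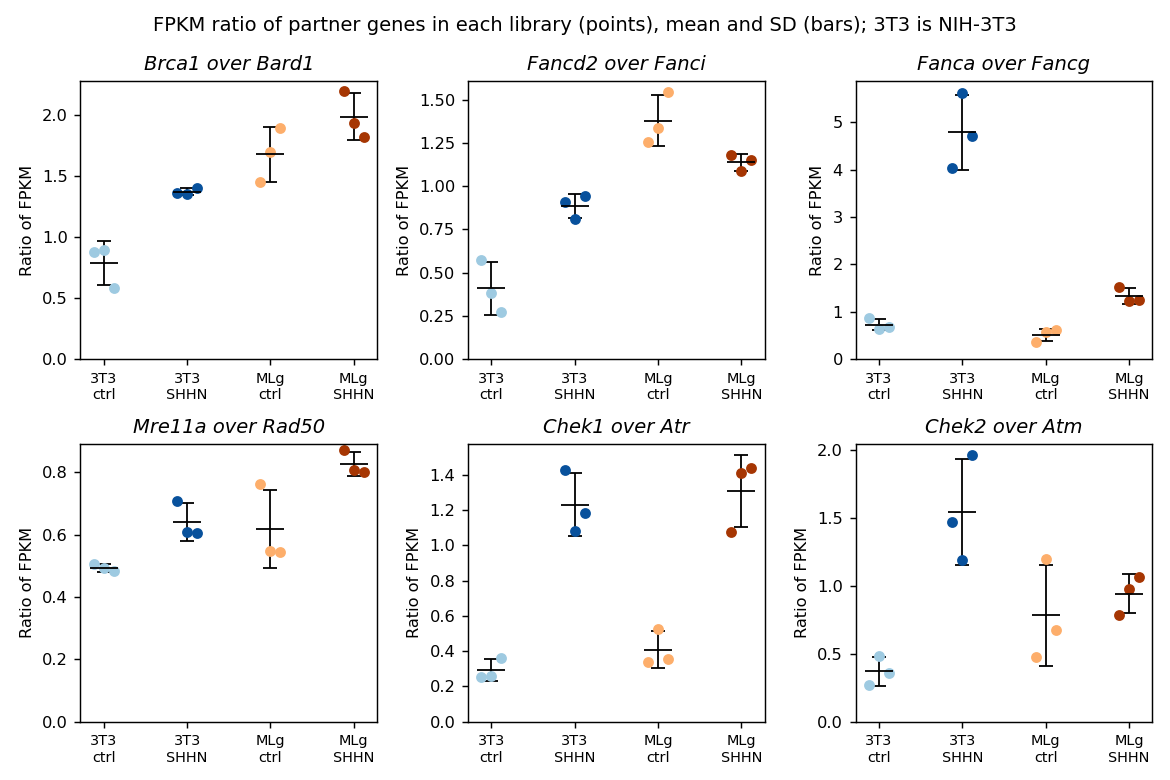
Ratio of FPKM between partner genes (y axis, from 0) in each library (points) of the 4 groups on the x axis, with mean and SD (bars). Fanca over Fancg with SHHN lies between 4.04 and 5.61 in NIH-3T3, above the MLg libraries. Fancd2 over Fanci moves in opposite directions in the lines, with Fancd2 at 0.160 to 0.275 FPKM in NIH-3T3 control.

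The untreated lines differed in these genes. Between NIH-3T3 control and MLg control, 15 of the 33 genes were lower in NIH-3T3 (45.5%, against 25.7% of all genes tested) and 2 were higher (6.06%, against 24.4%). Fancd2 showed the widest gap, a log2 difference of -1.32 (SE 0.14, adjusted p = 4.4e-06). Brca1 (-1.15), Rad54b (-1.07), Brip1 (-1.01), Chek2 (-0.95) and Rad51ap1 (-0.92) came next. Nbn (-0.62), Fancg (-0.60) and Fanci (-0.47) were also lower. Fancl (1.09, adjusted p = 5.84e-05) and Fancf (0.58, adjusted p = 0.00414) were the 2 genes higher in NIH-3T3. The remaining 6 lower calls, Bard1, Rad54l, Fancb, Exo1, Mre11a and Chek1, were lost without NIH-3T3 control replicate 2 and also without MLg control replicate 3, each of which left 9. Fanci was lost with quantile normalization (adjusted p = 0.101). Of the 18 proliferation markers, 15 were lower in NIH-3T3 control than in MLg control and 2 were higher. Their summed level given above was also lower, and their part in this difference was not tested.

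With SHHN, 20 of the 33 genes were lower in NIH-3T3 than in MLg (60.6%, against 24.8% of all genes tested) and 3 were higher (9.09%, against 22.1%). Fancg had the widest gap of the lower genes, -1.40 (SE 0.14, adjusted p = 1.63e-06), followed by Fancb (-1.18), Rad54b (-1.14) and Atm (-1.11). All 3 MRN genes were lower, Nbn by -0.99, Mre11a by -1.02 and Rad50 by -0.68. Fancf (0.90, adjusted p = 0.000164) and Fancl (0.86, adjusted p = 0.000545) were again higher, and Fance joined them (0.37, adjusted p = 0.0401). Of the 18 proliferation markers, 14 were lower in NIH-3T3 SHHN than in MLg SHHN and 0 higher (median -0.68), and their part in this difference was not tested. The calls of Fance, Rad51ap1, Exo1 and Chek2 were each lost on leaving out single libraries. Genes that did not differ at this threshold in either state were Rad51b, Rad51c, Rad51d, Xrcc2, Xrcc3, Fanca, Fancc, Fancm and Msh6.

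The wider pathways were read from lists of genes that are not among the 33. Of all genes tested, 16.6% rose in NIH-3T3 and 12.8% in MLg. Slx4 is in both the recombination and the Fanconi list. Of 31 other homologous recombination genes, 14 rose in NIH-3T3 and 20 in MLg, with median effects of 0.35 and 0.79. Mms22l, which aids recombination at stalled forks, rose by 1.77 and 2.02, and Dna2, a resection nuclease, by 1.85 and 2.32. Fbxo18, an anti-recombination helicase gene, fell in NIH-3T3 (-0.47, adjusted p = 0.00129), and Rad52 fell in MLg (-0.60, adjusted p = 0.0272). Of 20 other Fanconi genes, 13 rose in NIH-3T3 and 9 in MLg. Ube2t, the ubiquitin-conjugating enzyme of the pathway, rose by 2.05 and 1.84, and Usp1, which removes the ubiquitin from ID2, by 1.01 and 1.31. Of 28 other damage sensing and checkpoint genes, 12 and 15 rose. Pkmyt1, an inhibitory kinase of CDK1, rose by 2.63 and 2.02, and Cdc25c, the phosphatase that opposes it, by 2.24 and 1.97. In this list Wee1, another inhibitory kinase of CDK1, rose more in NIH-3T3 (difference 1.06, adjusted p = 0.00534) and Topbp1, the activator of ATR, more in MLg (difference -0.71, adjusted p = 0.0299).

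Other repair routes were read in the same way, beside the same 16.6% and 12.8% of all genes that rose. Of 6 other mismatch repair genes, 4 rose in each line, with medians of 0.43 and 0.59. Pms1 rose by 1.47 and 0.95, and Msh3 by 0.44 and 0.59. Of 19 base excision repair genes, 7 rose in each line, with medians of 0.15 and 0.22. Ung, which removes uracil, rose by 2.38 and 1.96, and Neil3, a glycosylase that also unhooks crosslinks, by 2.63 and 2.25. The glycosylase genes Mbd4 and Neil1 and the polymerase gene Polb fell in NIH-3T3, Aptx, which cleans blocked DNA ends, fell in MLg, and Mbd4 rose in MLg (0.90, adjusted p = 0.00134).

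Non-homologous end joining rejoins broken ends without a template. Of its 10 genes, 0 rose and 3 fell in NIH-3T3, and 1 rose and 2 fell in MLg. Of all genes tested, 16.6% rose and 14.8% fell in NIH-3T3, and 12.8% rose and 10.0% fell in MLg. With 10 genes, nothing is read from these counts about the list as a whole. Aplf, an end-joining scaffold, fell from 26.5 ± 3.15 to 8.56 ± 0.955 FPKM (SD, n = 3) in NIH-3T3 and was at 4.16 ± 0.285 and 5.11 ± 0.760 FPKM in MLg. Its effects were -1.58 (SE 0.14, adjusted p = 1.28e-06) and 0.26 (SE 0.14, adjusted p = 0.218), and the difference between them passed (-1.83, SE 0.20, adjusted p = 5.23e-05). Polm, a polymerase of the route, fell in both lines, by 0.43 (adjusted p = 0.0128) and by 0.64 (adjusted p = 0.00101) on the log2 scale. Xrcc5, the gene of Ku80, fell in NIH-3T3 (-0.53, adjusted p = 0.0104). In MLg, Xrcc6, the gene of Ku70, rose (0.41, adjusted p = 0.0255) and Dclre1c, the gene of the nuclease Artemis, fell (-0.85, adjusted p = 0.00241). Of 21 nucleotide excision repair genes, 0 rose and 2 fell in NIH-3T3 (Mnat1, a gene of the TFIIH-bound kinase, -0.92, and Ddb1, a damage-binding ligase adaptor, -0.36). In MLg, 1 of the 21 rose and 0 fell. The medians of this list were -0.08 and -0.03.

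**Figure D5:**
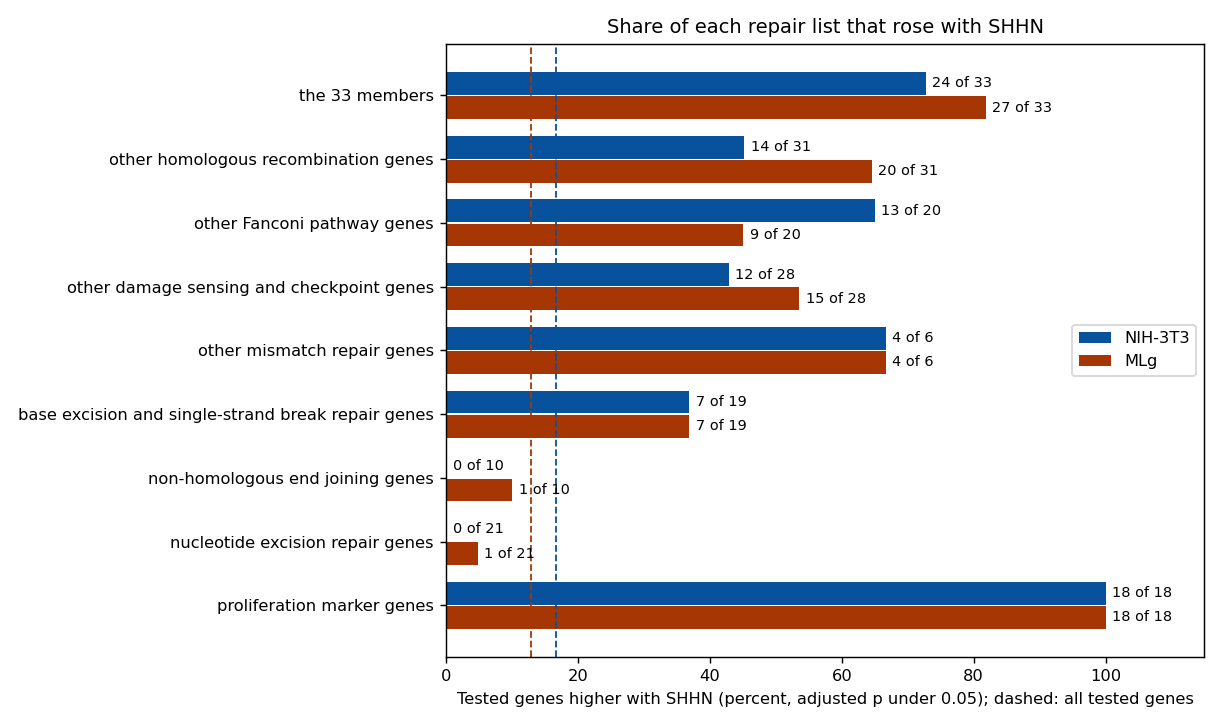
Percent of the tested genes of each list that rose with SHHN (x axis, adjusted p under 0.05) in NIH-3T3 and MLg, with the counts at the bars and the share of all tested genes as dashed lines (16.6% and 12.8%). The 33 genes and the proliferation markers have the longest bars, and nucleotide excision repair and end joining stay below the dashed lines.

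Exons of 12 of the 33 genes overlap those of another gene in the table in the GENCODE M21 annotation of mm10. The pairs are Xrcc3 with Klc1, Rad54l with Lrrc41, Rad54b with Fsbp, Fanca with Zfp276, Fancc with 2010111I01Rik, Fancf with Gas2, Fancl with Vrk2, Fancd2 with Fancd2os, Fanci with Polg, Mre11a with Ankrd49, Atr with 1700065D16Rik and Msh6 with Fbxo11. Whether strand was used in the quantification is not given in the sources used here, so fragments at these exons cannot be assigned with certainty.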

How the data were processed

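RNA of 12 libraries (4 groups of 3) was sequenced, and the deposited values are FPKM for each gene and library, computed by the authors. Per the submitters' processing notes, the tools were bcl2fastq, TopHat2 2.0.12 and Cufflinks 2.2.1 with the mm10 build; the annotation and any scaling between libraries are not given in the sources used here. No counts were used, so depth is unknown and no counting interval is given.

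limma 3.58.1 (R 4.3.3) was run on log2(FPKM + 0.5) of the genes reaching 0.5 FPKM in 3 or more libraries, fitting the means of 4 groups under a variance trend. Two-sided p-values received a Benjamini-Hochberg adjustment over all 12379 genes, with a threshold of 0.05; every adjusted p is from limma. The script was tested on simulated data. SE is of the fit and SD over 3 libraries. Members and lists were chosen with earlier results of these data known. Of each member set by role, values in every library were to be given for the gene with the smallest p, for those whose line difference passed and for those that did not follow their set; of each other list, the 2 genes with the smallest p per line, while lone fallers, risers and Wee1, Topbp1 and Xrcc6 were picked after seeing their values. Some genes of the lists are not reported here by name.

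As a check of pairing, the deviations from group means of same-numbered MLg libraries correlated across genes at 0.13, 0.16 and 0.24, and NIH-3T3 ones at -0.0007, -0.10 and 0.03. Control and SHHN libraries with different numbers correlated at -0.18 to 0.0086 in MLg and at -0.12 to 0.14 in NIH-3T3. The block was therefore read for MLg. The results were repeated with pseudocounts of 0.1 or 1, with a filter of 1 FPKM or none, quantile normalization, median-ratio scaling, the compared groups alone, the replicate block, robust variances, each library left out, and both NIH-3T3 libraries numbered 2 left out.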

Additional observations from a re-analysis of the deposited data

Results flagged for a closer look

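The SHHN effect differed between the lines, by the interaction term in limma, for 3 of the 33 genes. The difference (NIH-3T3 minus MLg) was -0.80 for Fancg, -0.75 for Palb2 and -0.65 for Mre11a, on the log2 scale. These are 9.09% of the genes, beside 5.95% of all genes tested in this direction, and 0 passed in the other direction, where 7.48% of all genes did. With a pseudocount of 0.1, Fancd2 passed in that other direction. The Palb2 call was lost on leaving out 7 of the 12 libraries in turn and the Mre11a call on leaving out 9. Fancg kept its call in every alternative run, with adjusted p of 0.0085 to 0.0451. Groups of 3 libraries are too small for the check on single outlying libraries.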

How the results depend on the processing

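Of 109 gene results, 86 kept both call and direction in all alternatives run. The 109 are every SHHN effect, with the line differences and differences of effects that passed in the main fit. Line differences and differences of effects that passed only in an alternative are outside this count. Leaving out each library in turn gave 23 to 24 genes higher in NIH-3T3, 26 to 28 in MLg, and 0 lower in either. For the difference of effects it gave 0 to 1 higher (Rad54l, without MLg control replicate 1) and 1 to 7 lower, and without both NIH-3T3 libraries numbered 2 there were 5 lower; a pseudocount of 0.1 gave 1 higher (Fancd2, 1.09, adjusted p = 0.0233). In NIH-3T3 control against MLg control, leaving out libraries gave 2 to 3 higher and 9 to 16 lower, and a fit of the compared groups alone or without both NIH-3T3 libraries numbered 2 gave 9 lower. With SHHN, the same comparison gave 2 to 3 higher and 17 to 22 lower. Directions turned only among effects in NIH-3T3 that did not pass, where leaving out single libraries gave -0.11 to 0.093 for Rad50, -0.34 to 0.17 for Atm, -0.33 to 0.011 for Atr, -0.0036 to 0.21 for Fance and -0.0077 to 0.19 for Rad51d. The turns came, for Rad50, without control replicate 2 (-0.11) or SHHN replicate 2 (-0.01), without both (-0.13) and with quantile normalization (-0.032); for Atm, without control replicate 1 (0.17), control replicate 3 (0.04) or SHHN replicate 3 (0.04); for Atr, without control replicate 1; for Fance, without control replicate 3; and for Rad51d, without SHHN replicate 3 and with quantile normalization (-0.0083). The cause was not tested. The replicate block changed 1 call of a gene, Xrcc3 in MLg (adjusted p = 0.0401), and gave 28 genes higher in MLg. The difference of effects needs all groups and so has no fit of 2 groups alone. Without counts, how far depth limits genes below 1 FPKM, such as Fancd2 in NIH-3T3 control, is unknown.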
